A study of Mus musculus with 24 samples.

Results

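Type I interferon effector genes encode the proteins that carry out the antiviral work of a cell after it has met an interferon, and 36 of them were measured here in the nucleus accumbens (NAc) of mice by bulk RNA-seq. The 36 genes were taken by symbol from a list that spans RNA-binding proteins, GTPases, enzymes of ISG15 conjugation, nucleotide enzymes, nucleic acid sensors, ADP-ribosyltransferases, TRIM ubiquitin ligases and membrane or secreted factors. All 36 of the 36 symbols were found among the 55401 gene IDs of the count table, and all 36 passed the filter on low counts, among 23738 genes tested.

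The NAc belongs to the ventral striatum, where most neurons are GABAergic medium spiny neurons. Tissue was punched from both sides and RNA was prepared with TRIzol and chloroform and a stranded mRNA kit from Illumina. There were 24 libraries in 4 groups of 6, named after surgery and vector. SNI Mef2c mice had a spared nerve injury (SNI, tibial variant) of the sciatic nerve on the left side, which models neuropathic pain, and AAV8-hSyn-Mef2c-Egfp. Sham Mef2c mice received the same vector after a sham operation in which the nerves stayed untouched. SNI Gfp mice had SNI and AAV8-hSyn-Egfp. Sham Gfp mice had the sham operation and AAV8-hSyn-Egfp. All 4 groups thus carried an adeno-associated virus and Egfp in both accumbens, and none was free of vector. The hSyn promoter drives expression mainly in neurons. MEF2C, the vector's product, is a transcription factor that responds to neuronal activity. The mice were C57BL/6J or DBA/2J, 8 to 9 weeks old when obtained, and the labels do not say which library came from which strain. The animals behind each library are not given either, and the p-values therefore reflect spread among libraries, part of which may be technical. The sequencing index ran by group, 1 to 6 in SNI Mef2c, 7 to 12 in Sham Mef2c, 13 to 18 in SNI Gfp and 19 to 24 in Sham Gfp, so an order of preparation that followed it cannot be told apart from the groups.

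Type I interferons are secreted after cells sense viral or misplaced nucleic acid, for which RIG-I, MDA5 and cGAS are sensors. They bind the receptor pair IFNAR1 and IFNAR2, and the kinases JAK1 and TYK2 then activate transcription factors, STAT2 and IRF9 among them, that bind interferon-stimulated response elements (ISREs) in the promoters of effector genes. In the brain, microglia, astrocytes, endothelial cells, neurons and infiltrating leukocytes can all express such genes.

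The promoters were read from RefSeq's table for GRCm38.p6, which holds 250 bases before to 50 bases after each start, and 25 of the 36 genes were in it. An ISRE-type motif, the half-site GAAA repeated on the same strand after 2 bases of any kind and searched on both strands, was present in 11 of these 25 genes (Ifit1, Ifit3, Ifit3b, Isg15, Rsad2, Ifih1, Ddx60, Trim30a, Trim21, Bst2 and Ifitm3), against 3.44% of the 32851 promoters in the table and 3.99% of its 27025 genes. A GAS-type motif, TTC and GAA separated by 3 bases of any kind and likewise searched on both strands, was present in 5 of the 25 (Ifit2, Samhd1, Bst2, Ifitm3 and Ifi35), against 8.3% of promoters and 9.55% of genes. The 2 motifs were searched separately, and neighbouring ISRE matches may overlap. The 200 bases upstream of the start are shown for 7 of the 8 genes with a match there, and for Cmpk2, which had no match and the smallest difference. The eighth, Trim30a, has 2 starts in the table, with an upstream match at 1 of them, and is not shown. They run 5′ to 3′ on the gene's strand, and capitals mark ISRE matches.
Ifit1 (chr19:34640689-34640888, plus strand): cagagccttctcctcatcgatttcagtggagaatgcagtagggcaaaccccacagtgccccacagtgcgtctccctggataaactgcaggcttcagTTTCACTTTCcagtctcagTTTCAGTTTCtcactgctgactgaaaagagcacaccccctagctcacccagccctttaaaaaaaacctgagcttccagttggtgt
Ifit3 (chr19:34583329-34583528, plus strand): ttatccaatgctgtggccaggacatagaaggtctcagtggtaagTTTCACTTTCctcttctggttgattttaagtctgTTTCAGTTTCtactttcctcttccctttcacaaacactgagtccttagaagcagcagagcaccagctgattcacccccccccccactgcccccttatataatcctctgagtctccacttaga
Ifit3b (chr19:34607757-34607956, plus strand): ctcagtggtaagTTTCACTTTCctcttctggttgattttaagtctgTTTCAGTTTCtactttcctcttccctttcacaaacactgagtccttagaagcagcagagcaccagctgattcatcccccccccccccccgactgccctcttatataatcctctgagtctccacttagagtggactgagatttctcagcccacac
Isg15 (chr4:156200819-156201018, minus strand): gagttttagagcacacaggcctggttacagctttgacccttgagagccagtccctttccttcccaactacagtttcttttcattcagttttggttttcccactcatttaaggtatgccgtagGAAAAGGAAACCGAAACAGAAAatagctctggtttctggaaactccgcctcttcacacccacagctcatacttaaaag
Bst2 (chr8:71537473-71537672, minus strand): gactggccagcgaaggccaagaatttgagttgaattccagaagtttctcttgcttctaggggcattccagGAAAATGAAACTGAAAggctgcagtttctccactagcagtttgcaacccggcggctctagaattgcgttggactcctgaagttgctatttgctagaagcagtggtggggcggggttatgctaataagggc
Ddx60 (chr8:61927887-61928086, plus strand): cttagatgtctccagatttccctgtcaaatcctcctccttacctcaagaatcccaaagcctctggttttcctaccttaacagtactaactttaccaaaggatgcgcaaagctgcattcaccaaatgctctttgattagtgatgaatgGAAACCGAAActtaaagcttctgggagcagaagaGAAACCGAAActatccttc
Rsad2 (chr12:26456453-26456652, minus strand): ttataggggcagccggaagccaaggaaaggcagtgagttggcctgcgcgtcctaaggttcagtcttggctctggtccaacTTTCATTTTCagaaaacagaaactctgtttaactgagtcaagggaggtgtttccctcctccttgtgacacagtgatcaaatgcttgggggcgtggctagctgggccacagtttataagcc
Cmpk2 (chr12:26469015-26469214, plus strand): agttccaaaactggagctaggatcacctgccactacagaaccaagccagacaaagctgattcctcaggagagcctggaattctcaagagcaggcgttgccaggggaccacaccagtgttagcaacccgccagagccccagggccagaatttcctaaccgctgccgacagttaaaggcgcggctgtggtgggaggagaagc

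Ifit1, Ifit3 and Ifit3b each held 2 separate matches on the opposite strand. Ifit3 and Ifit3b, neighbouring copies, were alike in 138 of 168 upstream bases (82.1%) at a shift of 32 bases. Isg15 held 3 overlapping matches in 1 run, from 78 to 66 bases before the start counted at their first bases, and Bst2 held 2 overlapping ones. Ddx60 had its pair close to the start, at 53 and 19 bases before it, and Rsad2 had 1 match on the opposite strand, 120 bases before the start. A match is a string of letters and no evidence of binding.

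Library totals ran from 25477019 to 35601890 counts in SNI Mef2c, 28328510 to 33991197 in Sham Mef2c, 28101826 to 36570108 in SNI Gfp and 28924194 to 34078177 in Sham Gfp. Mef2c itself, the vector's gene, stood at 474 to 832 CPM (counts scaled to library size with TMM) in SNI Mef2c and 133 to 221 CPM in SNI Gfp. It stood at 469, 125, 248, 210, 123 and 285 CPM in libraries 1 to 6 of Sham Mef2c and at 139 to 212 CPM in Sham Gfp, so libraries 2 and 5 of Sham Mef2c lay below every Sham Gfp library and library 4 lay within their range. The medium spiny neuron markers were present in every library, with sums between 1401 and 4734 CPM. Of the 36 genes, Herc6, Parp10 and Parp9 overlap a gene with more counts over all libraries (Gm45193, Plec and Dtx3l), Ifit3 and Ifit3b are near-identical copies, and Dhx58 and Usp18 overlap other annotated transcripts. The counting setting for strand is not given in the sources used here, so the values of these genes are uncertain where reads could be shared.

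On average the 36 genes were low in both Mef2c groups, highest in Sham Gfp, and spread in SNI Gfp over levels between those of the Mef2c groups and those within the Sham Gfp range. Averaged over the 36 genes, the level was 2.00 ± 0.19 log2 CPM in SNI Mef2c, 1.97 ± 0.10 in Sham Mef2c, 3.03 ± 1.22 in SNI Gfp and 4.89 ± 0.62 in Sham Gfp (SD over libraries, n = 6 each). The summed level of the 36 genes was 225 to 272 CPM in SNI Mef2c, 219 to 248 CPM in Sham Mef2c and 669 to 2057 CPM in Sham Gfp. In libraries 1 to 6 of SNI Gfp the sum was 226, 252, 395, 800, 264 and 1364 CPM. Libraries 1, 2 and 5 of SNI Gfp were thus within the range of the Mef2c groups, and libraries 4 and 6 were within the range of Sham Gfp. In bulk tissue, fewer cells of a type and less RNA per cell cannot be told apart.

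**Figure D1:**
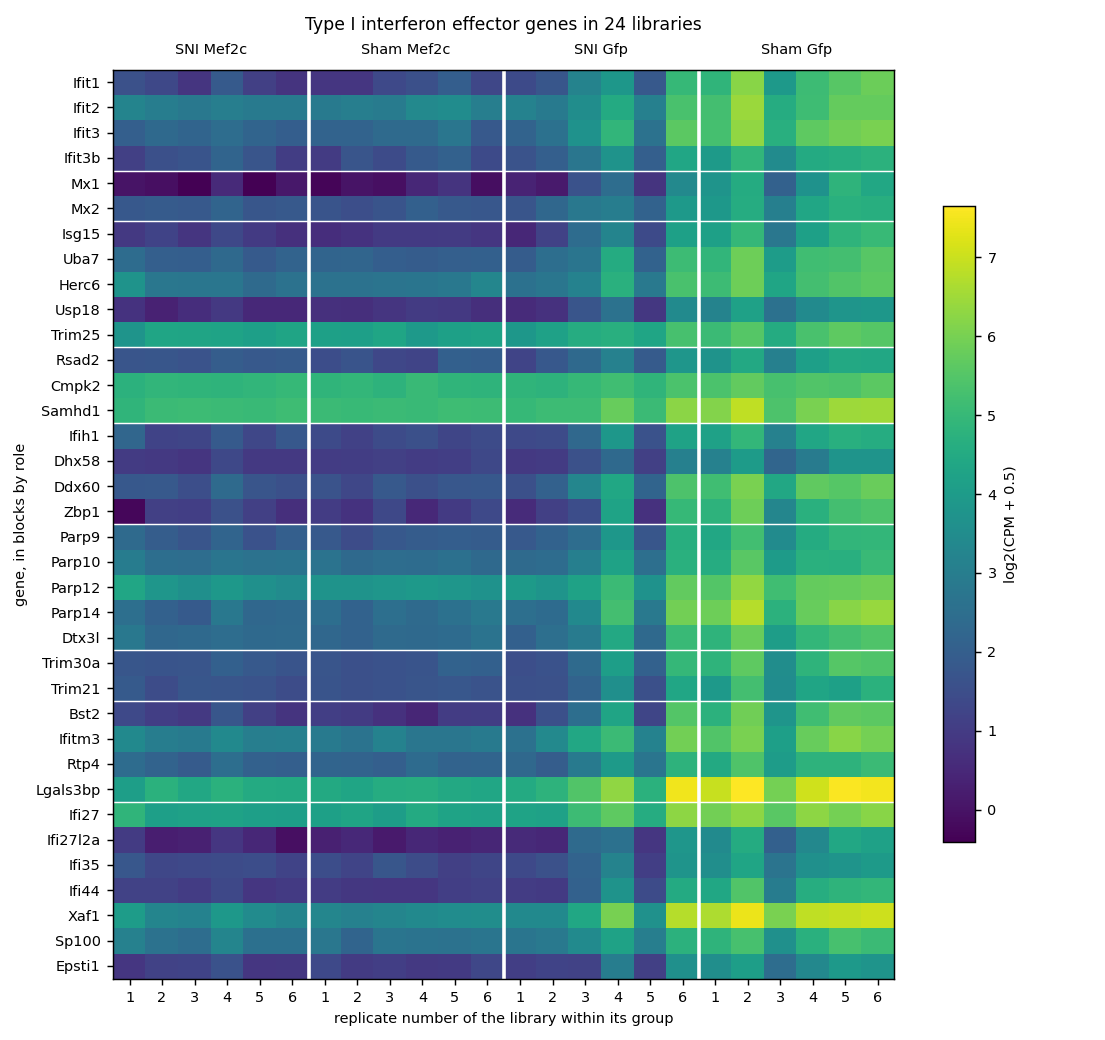
Levels of the 36 Type I interferon effector genes, as log2(CPM + 0.5) by colour, with genes in rows (blocks by role) and the 24 libraries in columns (SNI Mef2c, Sham Mef2c, SNI Gfp and Sham Gfp, 6 each). Within each row the 12 Mef2c columns are darker than the Sham Gfp columns, least so for Cmpk2, Trim25 and Samhd1, and libraries 6 and 4 are the brightest of SNI Gfp.

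The order of the SNI Gfp libraries was the same in nearly all genes. Library 6 was the highest and library 4 the second in 36 of 36 genes, and in 34 of 36 genes library 3 came next. Library 6 lay above the lowest Sham Gfp library in 36 genes, library 4 in 28 and library 3 in 3, whereas libraries 1, 2 and 5 lay below every Sham Gfp library in 36 of 36 genes. Libraries 4 and 6 lay above all 12 Mef2c libraries in 36 genes, library 3 in 30, library 5 in 5, library 2 in 3 and library 1 in 0. Within Sham Gfp, library 3 was the lowest in 36 of 36 genes and library 2 the highest in 29. The 36 genes thus ranked the libraries of a Gfp group almost alike.

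**Figure D2:**
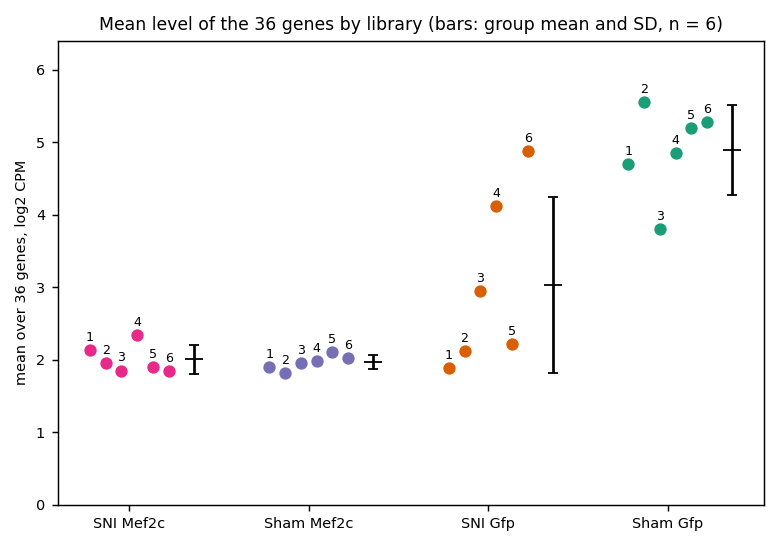
Mean over the 36 genes (y axis, log2 CPM) in each library (points, numbered by replicate) of SNI Mef2c, Sham Mef2c, SNI Gfp and Sham Gfp, with the group mean and SD (bars, n = 6). Both Mef2c groups lie near 2 log2 CPM, Sham Gfp lies between 3.80 and 5.55, and SNI Gfp spans 1.89 to 4.89.

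With sham surgery, the Mef2c vector came with lower levels of every one of the genes. In Sham Mef2c against Sham Gfp, 36 of 36 genes fell by edgeR's quasi-likelihood test with Benjamini-Hochberg adjustment over all genes (threshold 0.05), with adjusted p between 0.000161 and 0.000321. Of all genes tested, 7.93% (1882) were called lower in this comparison and 351 were called higher. The log2 fold changes ran from -4.84 to -0.60 with a median of -2.97, beside a median of 0.02 over all genes. In 36 of 36 genes all 6 Sham Mef2c libraries lay below all 6 Sham Gfp libraries, which was so for 5.21% of all genes tested. Without libraries 2 and 5 of Sham Mef2c, whose Mef2c level was below that of every Sham Gfp library, 36 of 36 genes were again called lower, beside 6.15% of all genes. With library 4 left out as well, an alternative chosen after seeing the data, the count was also 36, beside 4.88% of all genes. Libraries 2, 4 and 5 themselves had summed levels of the 36 genes of 219, 244 and 248 CPM. Sham Mef2c as a whole spanned 219 to 248 CPM. Its libraries without raised Mef2c were thus as low in these genes as the others, and a link to the level of Mef2c was not tested.

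The IFIT proteins bind foreign RNA and block its translation, and their genes lie side by side on chromosome 19 (Ifit1 at chr19:34640871-34650009, plus strand, mm10 with GENCODE M21). Ifit1, which recognises RNA caps that lack methylation, stood at 2.14, 2.85, 8.69, 14, 3.06 and 31.1 CPM in libraries 1 to 6 of SNI Gfp. Its lowest, median and highest levels were 1.22, 1.84 and 3.16 CPM among SNI Mef2c libraries, 1.31, 2.02 and 3.47 CPM in Sham Mef2c and 14.9, 40.5 and 73.6 CPM in Sham Gfp. All 12 Mef2c libraries were low, and library 6 of SNI Gfp lay inside the Sham Gfp range. In Sham Mef2c against Sham Gfp the log2 fold change of Ifit1 was -4.34 (SE 0.58; 20.3-fold lower). Ifit2, which also promotes cell death, fell by 2.51 on the log2 scale, averaging 8.41 ± 1.6 CPM in Sham Mef2c and 47.8 ± 21.7 CPM in Sham Gfp (SD, n = 6 each). Ifit3, the partner that stabilises IFIT1 on RNA in humans, fell by 3.57, and its copy Ifit3b fell by 3.05. Ifit3 ranged over 3.06 to 6.29 CPM in Sham Mef2c and 25.3 to 79.2 CPM in Sham Gfp, and Ifit3b over 1.48 to 3.76 and 10.6 to 29.2 CPM in those groups.

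MX proteins are dynamin-like GTPases that trap viral particles, MX1 in the nucleus and MX2 in the cytoplasm of mouse cells, and most inbred laboratory strains carry a defective Mx1. Both genes lie on chromosome 16. Mx1 stood at 0.819, 0.612, 2.59, 4.99, 1.24 and 10.0 CPM in libraries 1 to 6 of SNI Gfp, and its lowest, median and highest levels were 0.25, 0.476 and 0.959 CPM among SNI Mef2c libraries, 0.302, 0.479 and 1.25 CPM in Sham Mef2c and 3.78, 17.1 and 27.8 CPM in Sham Gfp. Every Mef2c library lay below every Sham Gfp library. Mx1 had a log2 fold change of -4.72 (SE 0.64) in Sham Mef2c against Sham Gfp. Mx2 (chr16:97535308-97560900, plus strand) stood at 2.81, 4.31, 6.51, 7.59, 3.82 and 14.7 CPM in SNI Gfp, with 2.85, 3.08 and 4.02 CPM as lowest, median and highest among SNI Mef2c libraries. The same 3 values of Mx2 were 2.36, 2.82 and 3.68 CPM in Sham Mef2c and 7.86, 21.7 and 25.7 CPM in Sham Gfp. The groups with sham surgery did not overlap, and Mx2 had the smallest p of the 36 genes in that comparison, at a log2 fold change of -2.73 with an SE of 0.32 and an adjusted p of 0.000161.

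ISG15 is a ubiquitin-like protein that is attached to other proteins after interferon, and the genes of its pathway fell together in Sham Mef2c, 5 of 5. Isg15 stood at 0.89, 1.77, 4.9, 8.87, 2.13 and 17.5 CPM in libraries 1 to 6 of SNI Gfp. For Isg15 the lowest, median and highest levels were 1.14, 1.42 and 2.01 CPM among SNI Mef2c libraries, 1.06, 1.38 and 1.48 CPM in Sham Mef2c and 6.41, 22.8 and 32.2 CPM in Sham Gfp. In Sham Mef2c the 6 values lay within 1.06 to 1.48 CPM, well under the lowest Sham Gfp library. Its log2 fold change was -4.05 (SE 0.55; 16.6-fold lower). Uba7, the enzyme that activates ISG15, fell by 3.33 on the log2 scale to 3.7 ± 0.30 CPM in Sham Mef2c, against 37.3 ± 14.4 CPM in Sham Gfp. Herc6, the main ligase for ISG15 in mouse, fell by 2.63. Usp18, the protease that removes ISG15 and also dampens IFNAR2 signalling, stood at 0.997, 1.16, 2.76, 5.73, 1.34 and 10.4 CPM in SNI Gfp. The lowest, median and highest levels of Usp18 were 0.782, 1.0 and 1.39 CPM among SNI Mef2c libraries, 1.08, 1.2 and 1.48 CPM in Sham Mef2c and 5.56, 11.8 and 18 CPM in Sham Gfp, with a log2 fold change of -3.23 (SE 0.46) between the sham groups. Trim25, a ubiquitin ligase that acts on RIG-I, moved least in this group of genes. It stood at 14.1, 17.8, 23.6, 25.1, 19.6 and 39.2 CPM in SNI Gfp, ranged over 13.1 to 19.4 CPM in SNI Mef2c, 14.9 to 19.6 CPM in Sham Mef2c and 23.1 to 49.4 CPM in Sham Gfp, and had a log2 fold change of -1.17 (SE 0.19) in Sham Mef2c against Sham Gfp.

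The nucleotide enzymes fell in Sham Mef2c, 3 of 3, by unequal amounts. Rsad2 (viperin), which turns CTP into a chain terminator of viral RNA synthesis, and Cmpk2, a mitochondrial nucleotide kinase, are neighbours on chromosome 12 (Rsad2 at chr12:26442746-26456452, minus strand, and Cmpk2 at chr12:26469204-26479837, plus strand). Rsad2 stood at 1.89, 3.0, 4.56, 8.19, 3.23 and 13.8 CPM in libraries 1 to 6 of SNI Gfp. By lowest, median and highest library, its levels were 2.64, 2.98 and 3.4 CPM among SNI Mef2c libraries, 1.87, 2.52 and 3.63 CPM in Sham Mef2c and 8.07, 19.2 and 21.3 CPM in Sham Gfp, a log2 fold change of -2.66 (SE 0.37) between the sham groups. Cmpk2, next to it, stood at 28.6, 27.7, 31.3, 35.8, 28.7 and 40.6 CPM in SNI Gfp. The same 3 values of Cmpk2 were 26.5, 29 and 31.4 CPM among SNI Mef2c libraries, 27.6, 28.7 and 32.8 CPM in Sham Mef2c and 39.1, 42.5 and 52.4 CPM in Sham Gfp. The Mef2c groups overlapped each other and lay below Sham Gfp, and the log2 fold change of Cmpk2 between the sham groups was -0.60 (SE 0.08; 1.51-fold lower), the smallest of the 36. Samhd1, which degrades the nucleotides needed for DNA synthesis, stood at 31, 34.5, 34.1, 54.8, 33.4 and 75.7 CPM in SNI Gfp. It ranged over 28.4 to 34.8 CPM in SNI Mef2c, 31.8 to 34.9 CPM in Sham Mef2c and 41.9 to 118 CPM in Sham Gfp, with a log2 fold change of -1.24 (SE 0.21) between the sham groups.

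The nucleic acid sensors fell in Sham Mef2c, 4 of 4. Zbp1, which binds Z-form nucleic acid and triggers necroptosis, had the largest SD of log2 CPM of the 36 genes in SNI Gfp. Zbp1 stood at 0.997, 1.68, 2.32, 18.6, 1.17 and 31.4 CPM in libraries 1 to 6 of that group. Lowest, median and highest levels of it were 0.334, 1.63 and 2.51 CPM among SNI Mef2c libraries, 0.921, 1.49 and 2.05 CPM in Sham Mef2c and 9.34, 32.5 and 57.8 CPM in Sham Gfp, and its log2 fold change between the sham groups was -4.44 (SE 0.76). Libraries 4 and 6 of SNI Gfp stood with Sham Gfp, and the other 4 stood with the Mef2c groups. Ddx60 (chr8:61928087-62038244, plus strand), a helicase linked to RNA sensing, stood at 2.46, 3.76, 9.3, 20.5, 4.02 and 42 CPM in SNI Gfp. Its lowest, median and highest levels were 2.39, 2.86 and 4.7 CPM among SNI Mef2c libraries, 1.95, 2.79 and 3.05 CPM in Sham Mef2c and 20.9, 48.4 and 64.9 CPM in Sham Gfp, a log2 fold change of -4.09 (SE 0.54) between the sham groups. Ifih1 (MDA5), the sensor of long double-stranded RNA, fell by 3.30 on the log2 scale, averaging 2.11 ± 0.267 CPM in Sham Mef2c and 20.7 ± 7.33 CPM in Sham Gfp. Dhx58 (LGP2), its regulator, fell by 2.63, averaging 1.65 ± 0.187 CPM in Sham Mef2c and 10.2 ± 4.34 CPM in Sham Gfp.

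PARP9 and DTX3L form a complex that modifies histones and ubiquitin, while PARP10, PARP12 and PARP14 attach single ADP-ribose units to proteins, and all 5 genes fell. Parp14 had the largest change of them, -3.70 (SE 0.54), with 3.83 to 6.77 CPM in Sham Mef2c and 26.5 to 107 CPM in Sham Gfp. Parp9 fell by 3.02 and Dtx3l by 2.90 on the log2 scale. Parp10 fell by 2.48, and Parp12 changed least, -2.04, at 13.3 ± 0.835 CPM in Sham Mef2c and 54.7 ± 15 CPM in Sham Gfp. Trim30a, a restrainer of Toll-like receptor signalling in mouse, fell by 3.51, averaging 3.0 ± 0.591 CPM in Sham Mef2c and 34.2 ± 14.6 CPM in Sham Gfp. Trim21, an antibody receptor inside the cell, fell by 2.96, averaging 2.68 ± 0.171 CPM in Sham Mef2c and 20.9 ± 9.39 CPM in Sham Gfp.

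Bst2 (tetherin, chr8:71534255-71537456, minus strand), which holds budding virus at the cell surface, had the largest fall of the 36 genes. It stood at 1.17, 2.45, 5.21, 19.1, 1.92 and 44.5 CPM in libraries 1 to 6 of SNI Gfp. By lowest, median and highest library, its levels were 1.22, 1.64 and 2.85 CPM among SNI Mef2c libraries, 0.855, 1.5 and 1.63 CPM in Sham Mef2c and 13.3, 42.2 and 60.0 CPM in Sham Gfp. The log2 fold change between the sham groups was -4.84 (SE 0.72; 28.7-fold lower), and library 6 of SNI Gfp lay inside the Sham Gfp range while libraries 1, 2 and 5 lay within or near the Mef2c range. Ifitm3, which blocks fusion of viral and endosomal membranes, fell by 2.97 on the log2 scale, averaging 6.74 ± 0.914 CPM in Sham Mef2c and 52.9 ± 20.5 CPM in Sham Gfp. Rtp4, a chaperone of receptor transport, fell by 2.79. Lgals3bp, a secreted glycoprotein that binds galectins, fell by 2.78, averaging 21.7 ± 1.73 CPM in Sham Mef2c and 149.5 ± 53 CPM in Sham Gfp.

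The remaining 7 genes are induced by interferon and act less directly. Ifi27l2a, a small membrane protein, stood at 0.961, 0.887, 4.63, 5.57, 1.31 and 13.8 CPM in libraries 1 to 6 of SNI Gfp. Lowest, median and highest levels of it were 0.448, 0.833 and 1.47 CPM among SNI Mef2c libraries, 0.628, 0.818 and 0.925 CPM in Sham Mef2c and 3.63, 14.2 and 22.8 CPM in Sham Gfp, a log2 fold change of -4.14 (SE 0.60) between the sham groups. Ifi27, its neighbour on chromosome 12, changed much less. Ifi27 stood at 18.6, 17.7, 34, 49.8, 23.4 and 76.8 CPM in SNI Gfp, ranged over 16.6 to 28.5 CPM in SNI Mef2c, 16.4 to 22.4 CPM in Sham Mef2c and 47.5 to 77.7 CPM in Sham Gfp, and had a log2 fold change of -1.83 (SE 0.27) between the sham groups. Ifi44, a cytoplasmic protein that restrains virus growth, stood at 1.53, 1.44, 3.75, 12.7, 2.2 and 22.3 CPM in SNI Gfp. Its lowest, median and highest levels were 1.31, 1.64 and 2.01 CPM among SNI Mef2c libraries, 1.31, 1.43 and 1.69 CPM in Sham Mef2c and 7.31, 26 and 43.4 CPM in Sham Gfp, a log2 fold change of -4.12 (SE 0.58) between the sham groups. Xaf1, which counters the caspase inhibitor XIAP, fell by 3.60 on the log2 scale, averaging 9.78 ± 1.09 CPM in Sham Mef2c and 118 ± 35.1 CPM in Sham Gfp. Sp100, a component of nuclear bodies, fell by 2.38, Ifi35 by 2.57 and Epsti1 by 2.82.

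**Figure D3:**
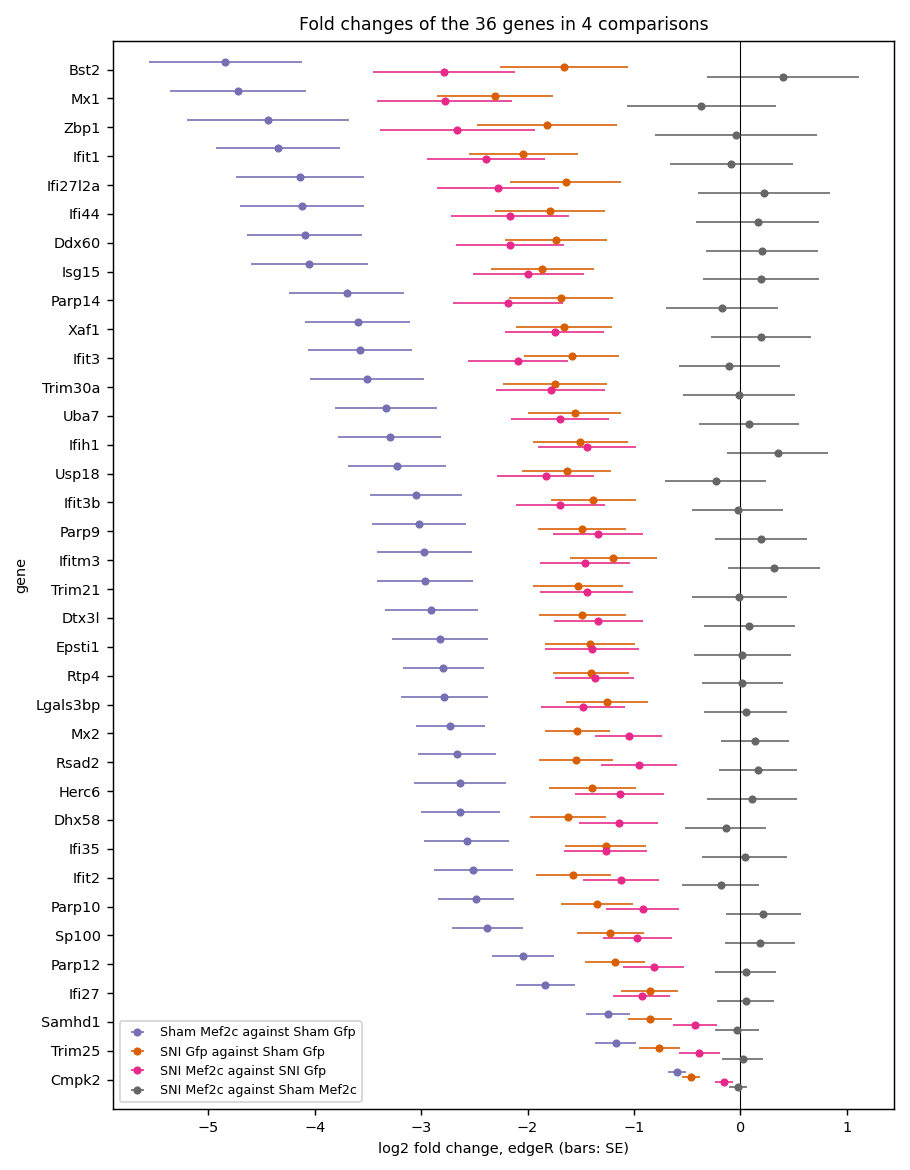
Log2 fold change (x axis, edgeR, bars are SE) of the 36 genes (y axis, ordered by the fall in Sham Mef2c) in Sham Mef2c against Sham Gfp, SNI Gfp against Sham Gfp, SNI Mef2c against SNI Gfp and SNI Mef2c against Sham Mef2c. The first 3 comparisons lie below 0 for every gene, reaching -4.84 for Bst2 in Sham Mef2c against Sham Gfp, and the last lies between -0.37 and 0.40.

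Nerve injury with the Gfp vector came with lower mean levels of the same genes, but none was called. In SNI Gfp against Sham Gfp, 0 of 36 genes passed edgeR's adjusted p of 0.05, as did 0% of all genes (0 of 23738), while 36 of 36 had an unadjusted p under 0.05, against 12.3% of all genes. The adjusted p lay between 0.0797 and 0.204. All 36 log2 fold changes were below 0, at most -0.46 and at the lowest -2.3 (Mx1), with a median of -1.53 beside 0.01 over all genes. The smallest p-values were those of Cmpk2 (-0.46, SE 0.08, adjusted p = 0.0797), Mx2 (-1.53, SE 0.31, adjusted p = 0.0929) and Dhx58 (-1.62, SE 0.36, adjusted p = 0.0929). In 0 of 36 genes did the 6 SNI Gfp libraries lie below all Sham Gfp libraries (0.143% of all genes), since library 6 lay above the lowest Sham Gfp library in each. The count rested on single libraries: without SNI Gfp library 6 it was 36 (5.22% of all genes were then called lower), and without Sham Gfp library 3 it was 32 (3.05%). DESeq2 called 31 of 36 lower (2.06%), quality-weighted limma-voom 36 (7.69%), and limma-trend on FPKM also 36, with 2.99% of all genes when 1 was added and 3.14% when 0.1 was added.

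With nerve injury, the Mef2c vector likewise came with lower mean levels that did not pass the test. In SNI Mef2c against SNI Gfp, 0 of 36 genes were called lower by edgeR, as were 0% of all genes, and the 1 gene called in either direction was Mef2c. An unadjusted p under 0.05 was found for 33 of 36 genes and 14.3% of all genes. The log2 fold changes lay between -2.78 and -0.15, with a median of -1.44 beside 0.00 over all genes, and adjusted p between 0.0891 and 0.407. The smallest p-values were those of Ifit3 (-2.09, SE 0.47), Mx1 (-2.78, SE 0.64) and Ifit1 (-2.39, SE 0.55). Ifit3 averaged 4.13 ± 0.589 CPM in SNI Mef2c and 17.5 ± 17.8 CPM in SNI Gfp. The 2 groups overlapped in 36 of 36 genes, through the low SNI Gfp libraries, and 0.227% of all genes had every SNI Mef2c library below every SNI Gfp library. The count was 15 of 36 without SNI Gfp library 1 (0.634% of all genes called lower), 18 without library 2 (1.48%) and 13 without library 5 (0.671%). DESeq2 called 23 of 36 lower (1.69%), whereas limma-voom called 0 (0.0463%) and limma-trend on FPKM 0 (0%), whether 1 or 0.1 was added. The median log2 fold change of the 36 genes was -0.74 by limma-voom, with 23 genes at an unadjusted p under 0.05. On the log2 scale of FPKM it was -0.29 with 1 added (13 genes) and -0.71 with 0.1 added (26 genes).

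Between the 2 Mef2c groups no difference was detectable. In SNI Mef2c against Sham Mef2c, 0 of 36 genes were called by edgeR (0% of all genes), and DESeq2 also called 0. An unadjusted p under 0.05 by edgeR was found for 0 of 36 genes, against 16.1% of all genes. In 0 of 36 genes did the 2 groups lie apart in either direction. Of 23738 genes, 165 (0.695%) had every SNI Mef2c library below every Sham Mef2c library, and 95 had every SNI Mef2c library above. Of the 36 log2 fold changes 13 were below 0, and they lay between -0.37 and 0.40 with a median of 0.05. The smallest p-values belonged to Ifitm3 (0.32, SE 0.43, mean 8.41 ± 1.43 CPM for SNI Mef2c against 6.74 ± 0.914 CPM for Sham Mef2c), Ifih1 (0.35, SE 0.48) and Parp10 (0.22, SE 0.35), with adjusted p of 0.761, 0.761 and 0.809 for the 3 genes in that order. The SE of the 36 fold changes ran from 0.08 for Cmpk2 to 0.76 for Zbp1, so small differences in the more variable genes could not have been seen.

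The interaction asks whether the difference of SNI from sham under the Mef2c vector is unlike that under the Gfp vector. All 36 interaction terms were above 0, between 0.44 and 2.06 on the log2 scale with a median of 1.52, beside 0.00 over all genes. By edgeR 0 of 36 passed (0% of all genes called higher), with adjusted p between 0.313 and 0.391, and 35 of 36 had an unadjusted p under 0.05, against 14.9% of all genes. The smallest p-values were those of Mx2 (1.68, SE 0.44), Cmpk2 (0.44, SE 0.12) and Rsad2 (1.71, SE 0.50). The count was 27 of 36 without SNI Gfp library 6 (1.09% of all genes called higher), 35 by quality-weighted limma-voom (8.38%), 0 by DESeq2 and 0 by limma-trend on FPKM with 1 or 0.1 added. The comparisons share groups, Sham Gfp, SNI Gfp and Sham Mef2c each entering more than 1, so their values are not independent.

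Ranked by the fall in Sham Mef2c, the order was Bst2 (-4.84), Mx1 (-4.72), Zbp1 (-4.44), Ifit1 (-4.34), Ifi27l2a (-4.14) and Ifi44 (-4.12) at one end and Ifi27 (-1.83), Samhd1 (-1.24), Trim25 (-1.17) and Cmpk2 (-0.60) at the other. Neighbours among the first 6 differed by less than the SE of either, which was 0.72 for Bst2 and 0.58 for Ifi44, while Cmpk2 and Trim25 differed by more than theirs (0.08 and 0.19).

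The spread between libraries was widest in SNI Gfp. The SD of log2 CPM over its 6 libraries was largest for Zbp1 (2.11), Bst2 (2.02), Ifi44 (1.63) and Ifi27l2a (1.58) and smallest for Trim25 (0.50) and Cmpk2 (0.22). The median SD of the 36 genes was 0.27 in SNI Mef2c, 0.19 in Sham Mef2c, 1.28 in SNI Gfp and 0.62 in Sham Gfp, while the median over all genes was 0.18, 0.17, 0.18 and 0.18 in those groups. In 36 of 36 genes the SD was larger in SNI Gfp than in Sham Gfp. The highest library exceeded the lowest 1.47-fold to 37.8-fold in SNI Gfp (median 8.38-fold) and 1.34-fold to 7.35-fold in Sham Gfp (median 3.33-fold). In Sham Gfp the SD was largest for Mx1 (1.04) and smallest for Cmpk2 (0.16).

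**Figure D4:**
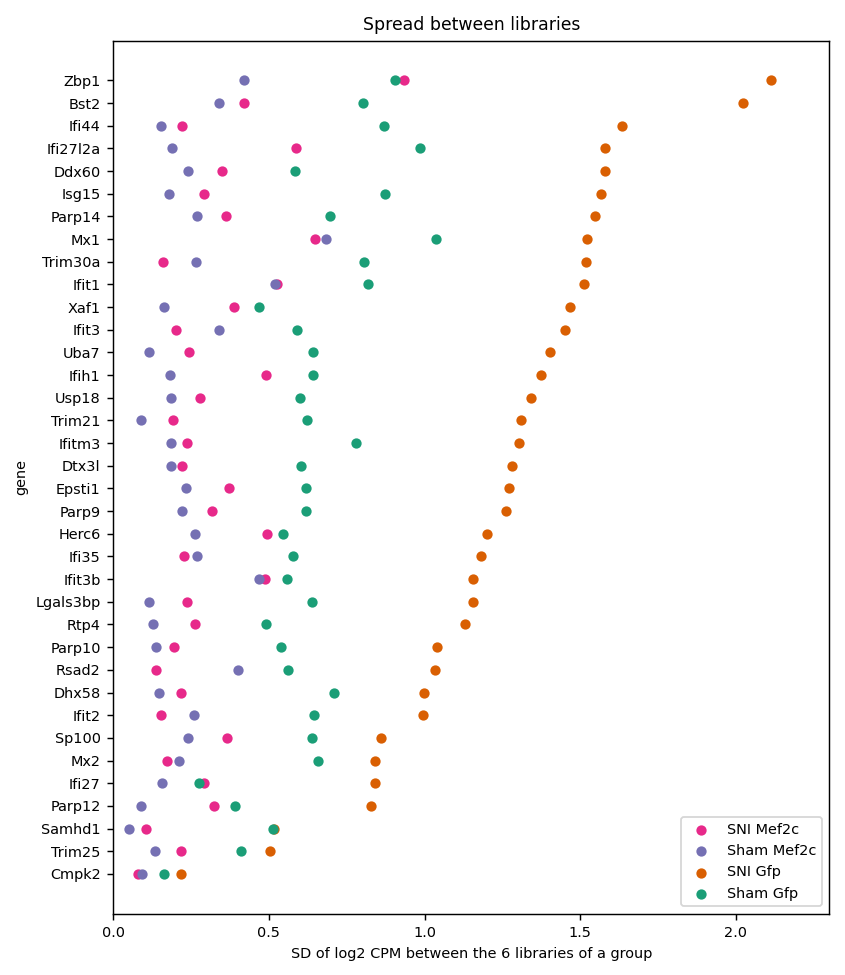
SD of log2 CPM between the 6 libraries of a group (x axis) for each of the 36 genes (y axis, ordered by the SD in SNI Gfp), with 1 point for each of SNI Mef2c, Sham Mef2c, SNI Gfp and Sham Gfp. The SNI Gfp points lie to the right of the Sham Gfp points in every row, up to 2.11 for Zbp1.

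Levels of different genes can be set against each other per length, with the deposited FPKM, whose length is the whole gene span. In Sham Gfp the highest mean FPKM was that of Ifitm3 (45.5), followed by Isg15 (16.7), Lgals3bp (16.3), Bst2 (12.5) and Ifi27 (11.2), and the lowest was that of Epsti1 (0.122). In Sham Mef2c the same genes had a mean FPKM of 5.67, 0.988, 2.32, 0.427 and 3.09, and Cmpk2 (2.75 FPKM) stood above Lgals3bp, Isg15 and Bst2. Since the span holds introns, FPKM understates genes with long introns such as Ddx60, Rtp4 and Epsti1.

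The genes upstream of the effectors were taken from lists of the pathway. Of the interferons themselves, 21 genes, 12 had no count in any library and 1 passed the filter. Ifnb1 had 0 counts in SNI Mef2c, 0 in Sham Mef2c, 2 in SNI Gfp and 1 in Sham Gfp, summed over 6 libraries. Ifng, the type II interferon of T and natural killer cells, was the 1 gene that passed and was called lower in Sham Mef2c (edgeR, adjusted p = 0.0014), with 1 count in SNI Mef2c, 1 in Sham Mef2c, 38 in SNI Gfp and 104 in Sham Gfp. No change in type I interferon RNA could be read at these counts.

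Of 9 receptor and kinase genes, 6 fell in Sham Mef2c against Sham Gfp (median log2 fold change -0.50). Ifnar1, the receptor's first chain, fell by 0.14 (SE 0.04; edgeR, adjusted p = 0.0325), averaging 63.1 ± 2.22 CPM in Sham Mef2c and 69.5 ± 4.2 CPM in Sham Gfp. Ifnar2, the second chain, fell by 0.56 (SE 0.11), Ifngr1, a chain of the type II receptor, by 0.58, and Il10rb, a chain shared with the type III receptor, by 0.77. The span of Il10rb overlaps a gene with more counts, so its value is uncertain.

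Of 12 transcription factors 10 fell, with a median of -2.24. Irf7, the amplifier of interferon transcription, had a log2 fold change of -4.85 (SE 0.65), with 1.15 to 1.84 CPM in Sham Mef2c and 9.01 to 76.1 CPM in Sham Gfp. Stat2 fell by 2.17 and Irf9, which joins it in a DNA-binding complex, by 2.3. The spans of Irf7 and Irf9 overlap genes with more counts. Irf3, which starts the response and is not itself induced, did not pass (-0.16, adjusted p = 0.20 by edgeR).

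Of 15 sensor and adaptor genes tested, 12 fell (median -1.06). Ddx58 (RIG-I) fell by 2.20, Tmem173 (STING), the adaptor for cGAS, by 1.73 and Aim2, a DNA sensor of inflammasomes that shares part of its span with a more abundant gene, by 0.67. Mavs, Tbk1 and Traf3, which relay the signal, did not pass. Of 8 genes listed as feedback regulators, a mixed list, 5 fell (median -1.58). Those that fell included Nlrc5, the activator of class I antigen presentation (-5.55), Isg20, an exonuclease (-3.42), and Socs1, an inhibitor of JAK kinases (-2.56). Adar, Pias1 and Cish did not pass. Of 23 other antiviral effectors 20 fell (median -4.18), and Ifitm1 and Ifitm2 were among those that did not pass. Eif2ak2 (PKR), a kinase that stops translation, fell by 2.20, averaging 11.1 ± 1.07 CPM in Sham Mef2c and 51.1 ± 17 CPM in Sham Gfp. Oasl1, which restrains Irf7 translation in mouse, fell by 4.68, and Tor3a, an ATPase of the endoplasmic reticulum, by 1.44. Of the 68 genes tested in these 6 lists, 54 were called lower and 0 higher in Sham Mef2c against Sham Gfp by edgeR. Over all genes tested, 7.93% were called lower there. In SNI Gfp against Sham Gfp edgeR called 0 of them (53 had an unadjusted p under 0.05), while DESeq2 called 27 lower, limma-voom 55, and limma-trend on FPKM 40 with 1 added and 42 with 0.1 added. In SNI Mef2c against SNI Gfp edgeR, limma-voom and limma-trend called 0 of them (43 had an unadjusted p under 0.05 by edgeR) and DESeq2 called 27 lower. In SNI Mef2c against Sham Mef2c each of these tools called 0, with 6 at an unadjusted p under 0.05 by edgeR. In the interaction limma-voom called 50 higher and 2 lower and the other tools 0, with 41 at an unadjusted p under 0.05 by edgeR. Over all genes, the shares at an unadjusted p under 0.05 by edgeR were 12.3% in SNI Gfp against Sham Gfp and 14.3% in SNI Mef2c against SNI Gfp. They were 16.1% in SNI Mef2c against Sham Mef2c and 14.9% in the interaction.

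Markers of microglia and of leukocytes mostly fell along with the effector genes, while those of the other cell types mostly were not called. In Sham Mef2c against Sham Gfp, 8 of 12 microglia markers were called lower and 1 higher by edgeR. Tmem119 fell by 1.26 on the log2 scale, Aif1 by 2.01, Csf1r by 1.17 and Cx3cr1 by 0.52, P2ry12 did not pass (-0.11), and Fcrls rose by 1.25. All of the span of P2ry12 is overlapped by Med12l, which has more counts, so its value is uncertain. The markers of T and cytotoxic cells fell in 10 of 11 genes tested of 12 listed, and B cell markers in 5 of 6. Monocyte and neutrophil markers fell in 4 of 4 tested of 7 listed, astrocyte markers in 3 of 7 and endothelial markers in 1 of 7. The share called lower over all genes tested was 7.93% in this comparison. Markers of oligodendrocytes, medium spiny neurons and cortical neurons and red blood cell genes were called in 0 cases by edgeR and by the other tools, and 1 of them, a red blood cell gene, had an unadjusted p under 0.05 by edgeR. The cortical neuron markers nevertheless had a median log2 fold change of -1.38. Their sums varied widely, 183 to 326 CPM in Sham Mef2c, 220 to 542 in Sham Gfp, 177 to 860 in SNI Gfp (highest in library 4) and 197 to 1688 in SNI Mef2c. Cd3e, which defines T cells, had 3 counts in SNI Mef2c, 3 in Sham Mef2c, 203 in SNI Gfp and 478 in Sham Gfp, and Cd8a had 6, 0, 354 and 956 counts in those groups. Gzmb had 0 counts in both Mef2c groups.

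By library, the summed microglia markers were 468 to 541 CPM in SNI Mef2c, 447 to 967 CPM in Sham Mef2c, 454 to 849 CPM in SNI Gfp and 713 to 1013 CPM in Sham Gfp. The summed T and cytotoxic cell markers were 30.5 to 40.5, 14.1 to 32.9, 19.5 to 67.5 and 27.0 to 97.0 CPM in those 4 groups. This sum came mostly from Cd4 (19062 counts over all libraries) and Lck (4724), against 687 for Cd3e and 1316 for Cd8a. It is thus a poor measure of T cells. The B cell markers summed to 1.52 to 2.87, 1.85 to 34, 1.62 to 164 and 23.1 to 216 CPM in the same order of groups. The monocyte and neutrophil markers summed to 1.42 to 2.47, 1.32 to 3.40, 1.35 to 39.9 and 5.98 to 60.7 CPM. Libraries 4 and 6 of SNI Gfp, those with high effector genes, had microglia sums of 753 and 849 CPM, against 454 to 540 CPM in the other 4 libraries. Library 6 of Sham Mef2c had a microglia sum of 967 CPM and a B cell sum of 34 CPM, yet its 36 effector genes summed to 240 CPM, within the range of its group. The part of these cell types in the fall of the effector genes was not tested.

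**Figure D5:**
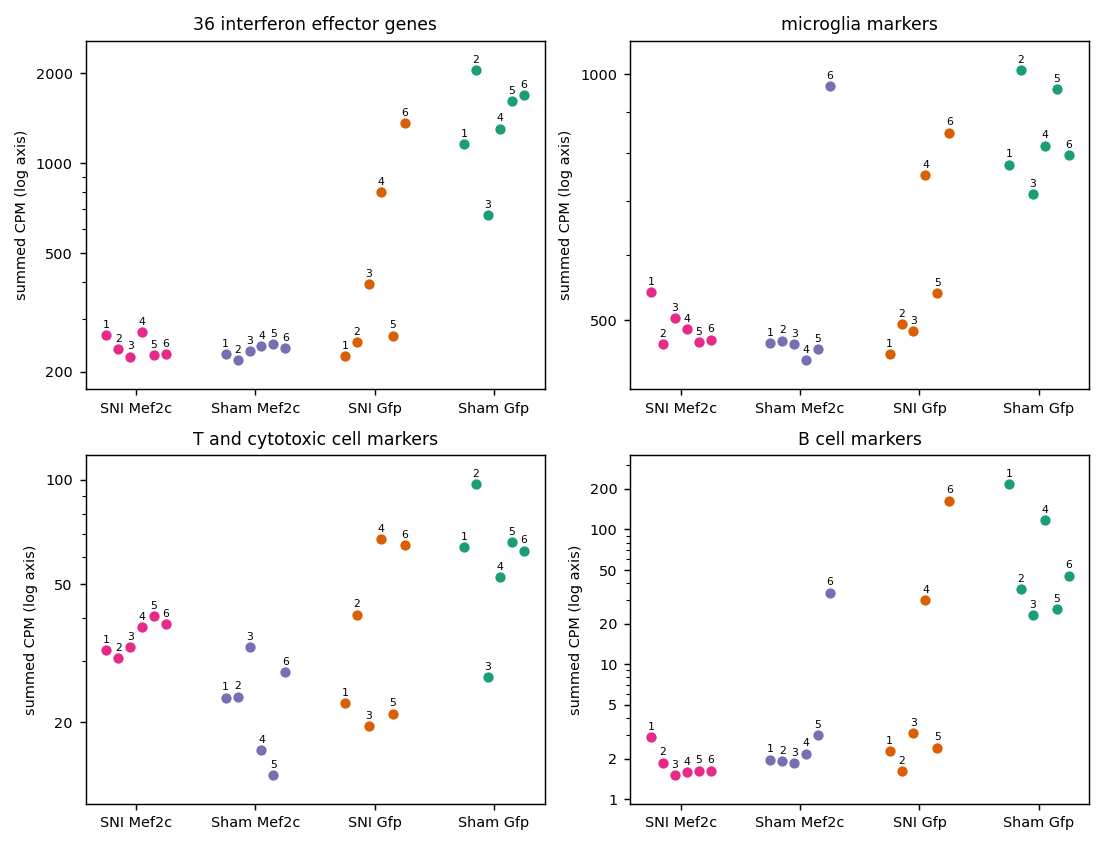
Summed CPM (y axis, logarithmic) of the 36 interferon effector genes and of the microglia, T and cytotoxic cell, and B cell markers in each library (points, numbered by replicate) of SNI Mef2c, Sham Mef2c, SNI Gfp and Sham Gfp. Libraries 4 and 6 of SNI Gfp are high in all 4 panels, and library 6 of Sham Mef2c is high for microglia and B cell markers but not for the effector genes. The T and cytotoxic cell sum comes mostly from Cd4 and Lck.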

How the data were processed

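Per the submitters' processing notes, reads were counted with featureCounts on the mm10 genome; no aligner, annotation, version or strand setting was named (not given in the sources used here). Raw counts per gene and FPKM were deposited by the authors. Dividing count, library total and FPKM gave a length equal to the gene span in GENCODE M21, introns included, for 42625 of 42625 genes compared (relative tolerance 1e-06). Of 55401 IDs, 55141 matched a symbol and 11852 had no count. The IDs of Isg15 and Mx1 matched only without their version, so no coordinates are given for them beyond RefSeq's promoter.

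Counts were tested with edgeR 4.0.16 in R 4.3.3: filterByExpr by group, TMM, a robust quasi-likelihood fit with 1 coefficient per group over all 24 libraries (20 residual degrees of freedom), two-sided p-values adjusted by Benjamini and Hochberg over 23738 genes, threshold 0.05. Fold changes are log2 values with their SE, and log2 CPM has a prior count of 2. Depth was 25477019 to 36570108 counts. The edgeR, DESeq2 and limma-voom steps were run on simulated data with the same dispersion for every gene and group. That run cannot show how the tools behave with the unequal spread seen here. No library was a copy of another, the chi-square over degrees of freedom being 3.22 or more in 60 within-group pairs (genes with 20 counts or more). Alternatives were RLE scaling, library size alone, no filter, at least 1 CPM in 6 libraries, DESeq2 1.42.0, limma 3.58.1 (voom with quality weights, and trend on log2 of FPKM plus 1 or 0.1), the compared groups alone, the replicate number as a block, each library left out, Sham Mef2c libraries 2 and 5 left out, and, chosen after seeing the data, libraries 2, 4 and 5 left out.

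The 36 genes and all lists were chosen with earlier results of these data known, so a list's direction is not independent evidence. Levels of single genes are given for Ifit1, Isg15, Mx2, Rsad2 and Usp18, the 6 largest and 4 smallest falls in Sham Mef2c, the 4 largest and 2 smallest SDs in SNI Gfp and the 3 smallest p-values of each comparison. Pathway genes named are Stat2, Irf7, Irf9, Ifnb1, Ifnar1, Ifnar2, Eif2ak2 and up to 3 per list by smallest p in Sham Mef2c against Sham Gfp. Other list genes are named to complete a count. Some list genes, 1 of them within this rule, are counted in their lists but not reported here by name.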

Additional observations from a re-analysis of the deposited data

Results flagged for a closer look

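A library stood apart from the other 5 of its group in 12 of 148 combinations. Each combination was a group with 1 of the 36 genes or their mean. The gap to the nearest library was then more than 0.625 of the group's range, both taken in log2 CPM, while the levels below are in CPM. Chance alone gives about 1 in 20. The genes move together within a group, so the combinations are not independent.

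In SNI Mef2c, library 1 was the highest for Herc6 (12.9 CPM, next 6.32), Ifi27 (28.5 CPM, next 18.4) and Dtx3l (6.6 CPM, next 5.01) and the lowest for Trim25 (13.1 CPM, next 17.3) and Samhd1 (28.4 CPM, next 32.9). The same library had a cortical neuron marker sum of 1688 CPM. Library 4 of that group was the highest for Dhx58 (2.01 CPM, next 1.5).

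In Sham Mef2c, library 6 was the highest for Herc6 (9.19 CPM, next 6.55) and Dhx58 (2.02 CPM, next 1.64), and library 2 was the lowest for Parp9 (2.26 CPM, next 2.99) and Sp100 (4.05 CPM, next 5.68).

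In Sham Gfp, library 3 was the lowest for Ifitm3 (17 CPM, next 43.4) and Sp100 (12 CPM, next 25.5). It was the lowest of its group in 36 of 36 effector genes.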

How the results depend on the processing

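The fall of the 36 genes in Sham Mef2c against Sham Gfp was called under all 36 alternatives, 1 of them chosen after seeing the data (without Sham Mef2c libraries 2, 4 and 5), with adjusted p up to 0.0277 and log2 fold changes between -5.40 and -0.14, and 36 genes under each left-out library (range 36 to 36). The fold change of -0.14 was that of Epsti1 on log2 of FPKM plus 1. Its mean FPKM was 0.122 in Sham Gfp and 0.017 in Sham Mef2c, so the added 1 outweighed its level. By edgeR on counts the log2 fold change of Epsti1 was -2.82. In SNI Mef2c against Sham Mef2c the count was 0 under every alternative (left-out libraries 0 to 0). No alternative reversed a gene's called direction.

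The counts of the other comparisons depended on the processing, and the cause was not tested. For SNI Gfp against Sham Gfp, the genes of the 36 called were 0 by edgeR and 31 by DESeq2, 36 by limma-voom, 36 on FPKM with 1 added and 36 with 0.1 added, and 0 to 36 over left-out libraries. All genes called were 0 by edgeR, 553 by DESeq2, 2777 by limma-voom, 731 on FPKM with 1 added, 770 with 0.1 added, and 1 with each of RLE scaling, library size alone and at least 1 CPM in 6 libraries, with 0 to 1392 over left-out libraries. For SNI Mef2c against SNI Gfp, 23 of the 36 were called by DESeq2, 0 by limma-voom and on FPKM, and 0 to 18 over left-out libraries; all genes called were 438 by DESeq2, 13 by limma-voom and 1 to 379 over left-out libraries. For the interaction, 35 of the 36 were called by limma-voom and 0 to 27 over left-out libraries; all genes called were 1 by DESeq2, 4074 by limma-voom and 0 to 269 over left-out libraries. All genes called in SNI Mef2c against Sham Mef2c were 13 by DESeq2, 1 on FPKM with 1 added and 0 to 1 over left-out libraries. In Sham Mef2c against Sham Gfp they were 2233 by edgeR, 4412 by limma-voom, 1405 without Sham Mef2c libraries 2, 4 and 5, and 1731 to 3602 over left-out libraries.

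By correlation, same-numbered libraries of different groups were no more alike than others. The median was -0.02 over 36 same-numbered pairs (-0.43 to 0.28, 9 above 0.1). It was 0.01 over 180 other pairs (-0.59 to 0.70, 55 above 0.1). A correlation cannot show whether same-numbered libraries were handled together. With the replicate number as a block (replicate block), 36 of the 36 genes and 1935 genes in all were called in Sham Mef2c against Sham Gfp, 1 gene in SNI Gfp against Sham Gfp, and 0 of the 36 in the other comparisons. Depth limits Mx1 and Ifi27l2a, each with under 1 CPM in most Mef2c libraries.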
